A study of Mus musculus with 8 samples.

Results

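The matrix metalloproteinases and their tissue inhibitors described here are 9 genes: the proteases Mmp2, Mmp9, Mmp12, Mmp13, Mmp14 and Mmp19 and the inhibitors Timp1, Timp2 and Timp3. They were chosen by name, and every probe set annotated with exactly 1 of these symbols was kept, which gave 22 of the 45101 probe sets on the array and 9 of the 18193 genes that have such a probe set. Where a gene had several probe sets, the one with the highest mean over all arrays stood for the gene, and the others are given beside it. A probe set is a group of short array probes against 1 transcript region, and its signal is on a log2 scale, so that a difference of 1 is a doubling. Levels are compared between arrays and never between genes, because probes differ in how brightly they hybridise.

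The cells were F4/80+ macrophages sorted by flow cytometry from the mammary tumours of FVB mice that carry the PyMT transgene and were 80 days old. The E2f3-deleted group had the genotype PyMT;Lys Cre;E2f3 f/f (4 arrays, A, E, F and H) and the control group had PyMT;E2f3 f/f without Cre (4 arrays, B, C, D and G). Both groups therefore carry the tumour-inducing polyoma middle T antigen and both floxed copies of E2f3, a transcription factor of the cell cycle, and the E2f3-deleted group also carries Cre recombinase under the myeloid lysozyme promoter. The comparison asks how the array signals of tumour-associated macrophages differ when E2f3 is deleted in that lineage. Cre itself and the loss of E2f3 cannot be told apart, since no control carried Cre. Nothing states that the 4 arrays of a group came from separate mice, so the p-values reflect variation among these arrays, some of which may be technical.

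Matrix metalloproteinases are zinc enzymes that cut collagens, elastin, basement membrane proteins and many cell surface and signalling proteins. Most are secreted as inactive precursors and gain activity when their propeptide is removed, and TIMPs block them by binding the active site. In tumours, macrophages are a known source of several of these enzymes, while fibroblasts, endothelial cells and pericytes also make MMPs and TIMPs. TIMP3 stands apart among the inhibitors in that it binds to the extracellular matrix and also blocks ADAM-type proteases.

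RefSeq promoter windows (build GRCm38.p6, 250 bases before to 50 after the transcription start) matched 6 of the 9 genes, with 7 windows because Mmp12 has 2 annotated starts. Mmp2, Mmp9 and Mmp19 were not matched. Of the 4 sequences below, 2 are of the inhibitors with several probe sets, Timp2 and Timp3, whose probe sets all pointed one way. The other 2 are of the proteases whose windows hold AP-1, Mmp12 and Mmp13. All 4 run from 100 bases before to 30 bases from the start, 5′ to 3′ on the gene's strand. Capitals mark the motifs found on either strand, which are AP-1 (spelled TGAGTCA) and the GC box (spelled GGGCGG). They also mark the TATA box, spelled TATAAA.
Mmp12 (downstream start, chr9:7347274-7347403, plus strand): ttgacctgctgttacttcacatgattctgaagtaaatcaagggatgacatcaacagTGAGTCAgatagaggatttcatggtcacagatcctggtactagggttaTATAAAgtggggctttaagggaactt
Mmp13 (chr9:7272414-7272543, plus strand): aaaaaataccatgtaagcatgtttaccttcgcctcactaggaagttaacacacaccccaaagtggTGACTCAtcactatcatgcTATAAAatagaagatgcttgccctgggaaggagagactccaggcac
Timp2 (chr11:118355382-118355511, minus strand): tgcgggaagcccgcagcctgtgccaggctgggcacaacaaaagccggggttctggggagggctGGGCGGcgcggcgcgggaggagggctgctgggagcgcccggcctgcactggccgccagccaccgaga
Timp3 (chr10:86300312-86300441, plus strand): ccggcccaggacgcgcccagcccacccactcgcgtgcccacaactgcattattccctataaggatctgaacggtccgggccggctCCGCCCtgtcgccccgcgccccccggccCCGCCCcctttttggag
The AP-1 motif began 44 bases before the Mmp12 start and 35 bases before the Mmp13 start, and 5.2% of all 32851 promoter windows hold it. A GC box began 37 bases before the Timp2 start and 15 bases before the Timp3 start, and 35.7% of all windows hold one. The E2F motif, searched as TTTCGCGC or TTTGGCGC, was in 0 of the 7 windows and in 0.813% of all windows. The TATA box was in 2 of the 7 windows and in 13.6% of all windows. It began 16 bases before the annotated Mmp13 start and 4 bases after the annotated Mmp12 start. AP-1 was in 2 of the 7, the same Mmp12 and Mmp13 windows as the TATA box and both of proteases. The GC box was in 4, those of Timp1, Timp2, Timp3 and Mmp14, whose boxes began 19 and 13 bases before its start. Only the GC box was thus found in both proteases and inhibitors. The upstream Mmp12 window held none of the 4 motifs. A match in letters is a description of the window and nothing more.

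E2f3 itself was measured by 2 probe sets, and neither separated the groups. The brighter one averaged 7.63 ± 0.123 in E2f3-deleted arrays and 7.67 ± 0.109 in control arrays (SD, n = 4 each), with adjusted p = 0.865 in limma over all probe sets. Whether these probes lie in the deleted exons is not given in the sources used here, so the labels were not checked by them. The letters of the scan files in the labels also differ from the replicate letters. Read as replicate letters, they would exchange the groups of 2 arrays, control B and E2f3-deleted F, and values under that grouping are given where they matter. Replicate H of the E2f3-deleted group stood apart: it correlated with the rest of its group at a mean r of 0.983, while A, E and F had 0.990 to 0.991 and the controls 0.994 or more, and it held the highest or lowest value of the 8 arrays for 48.9% of the 10916 genes tested. It was the highest array for 5 of the 9 genes described here and the lowest for 3, so differences are also given without it.

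None of the 8 members that passed the filter on low signal differed between the groups at an adjusted p under 0.05 (limma, Benjamini-Hochberg over 10916 genes). Of all genes tested, 0% passed that threshold. Timp3 had the largest difference, 1.36 higher in the E2f3-deleted group. It was the 1 member at an unadjusted p under 0.05, a mark reached by 14.2% of all genes. Of the 8, 4 were higher (Mmp2, Mmp9, Timp1, Timp3) and 4 lower (Mmp12, Mmp13, Mmp14, Timp2) in the E2f3-deleted group, with a median difference of 0.13, against −0.03 over all genes. Among all 10916 genes tested, 4506 were higher and 6410 lower. In 0 of the 8 genes did the 4 E2f3-deleted values lie wholly apart from the 4 control values, a pattern that 8.48% of all genes showed. Mmp19 was under the filter, a mean log2 signal of 5.998, and its values come from a fit over all probe sets.

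**Figure D1:**
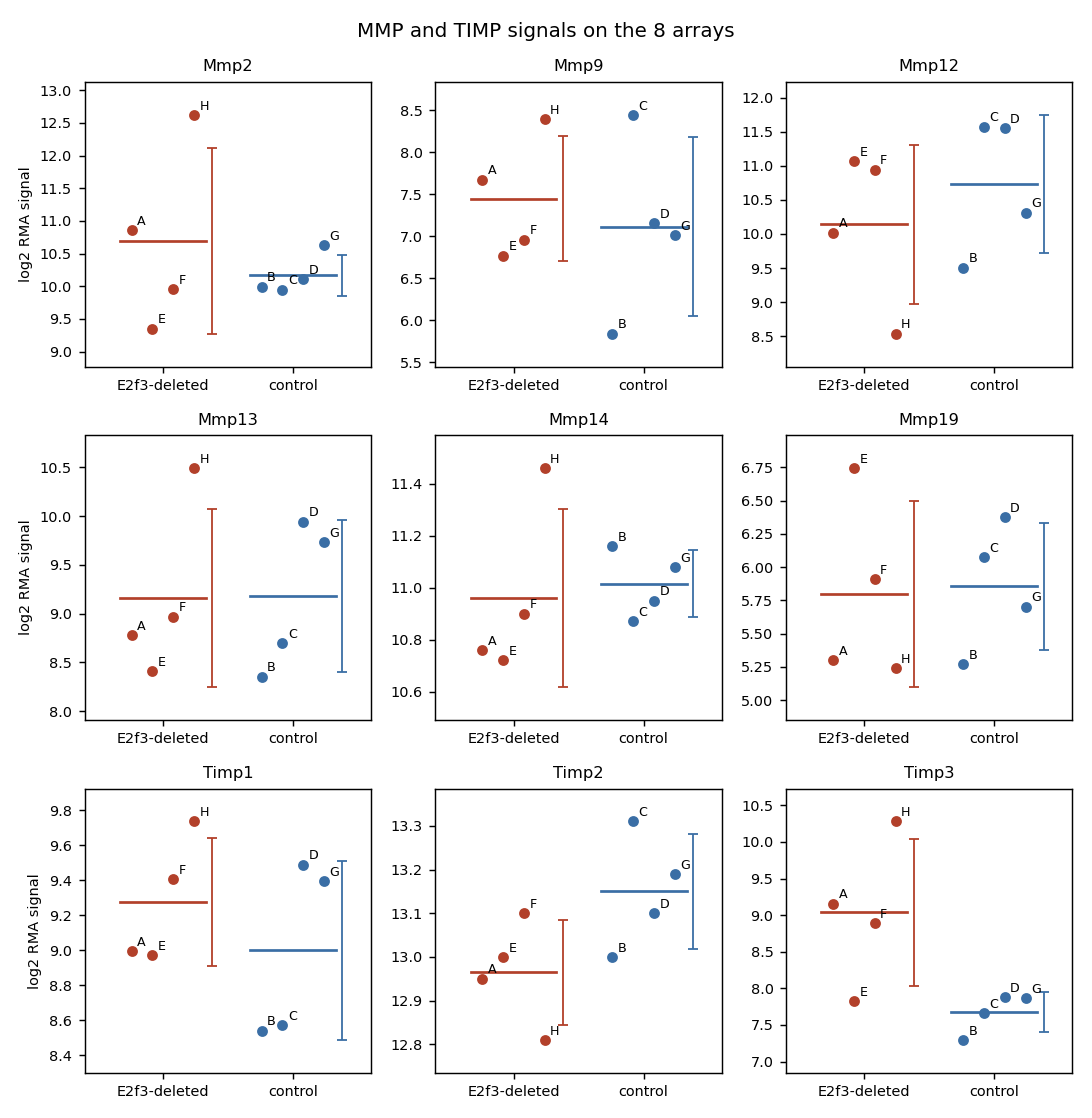
Log2 RMA signal (vertical axis, a separate scale for each gene) of the 9 genes on each array, with E2f3-deleted arrays A, E, F and H on the left and control arrays B, C, D and G on the right. Points are arrays, horizontal lines group means and brackets ± 1 SD (n = 4 each). Replicate H is the highest point for Mmp2, Mmp13, Mmp14, Timp1 and Timp3 and the lowest for Mmp12, Mmp19 and Timp2.

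The gelatinases Mmp2 and Mmp9 cut denatured collagen and the type IV collagen of basement membranes. Mmp2, on probe set 1439364_a_at, had log2 signals of 10.86, 9.35, 9.96 and 12.62 in E2f3-deleted arrays A, E, F and H, against 9.99, 9.95, 10.11 and 10.63 in control arrays B, C, D and G. The E2f3-deleted arrays held both the highest value, in H, and the lowest, in E, and the control values lay between them. The group difference was 0.53 (SE 0.629, 95% interval −0.92 to 1.97, adjusted p = 0.715 in limma). Without replicate H it was −0.11, and the second Mmp2 probe set gave 0.52 with H and −0.15 without it. On array H the fibroblast markers, a list of 12 genes, had a median 2.13 above the control mean, and with that median as a covariate the Mmp2 difference was −0.25. With the endothelial median as the covariate it was 1.54 (adjusted p = 0.351 in limma). That median was itself higher on E2f3-deleted A, E and F than on every control, so this fit cannot separate group from marker level.

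Mmp9, on probe set 1416298_at, differed by less than the spread between arrays. Its log2 signals were 7.67, 6.77, 6.96 and 8.39 in E2f3-deleted arrays A, E, F and H, against 5.84, 8.44, 7.16 and 7.01 in control arrays B, C, D and G. The 2 extremes of the gene were both control arrays, C at the top and B at the bottom. The difference was 0.34 (SE 0.560, adjusted p = 0.797 in limma), and 0.16 for the second probe set. It was 0.02 without E2f3-deleted replicate H, −0.09 without control replicate B and 0.78 without control replicate C, so single arrays set its size and its sign. With the groups taken from the scan letters it was −0.22.

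Mmp12, the macrophage elastase, on probe set 1449153_at, had the widest interval among the members. It had log2 signals of 10.02, 11.07, 10.94 and 8.54 in E2f3-deleted arrays A, E, F and H, against 9.51, 11.57, 11.55 and 10.31 in control arrays B, C, D and G. Replicate H was the lowest of the 8 arrays and replicate E lay below controls C and D, while control B was lower than E2f3-deleted A, E and F. The difference was −0.59 (SE 0.666, 95% interval −2.12 to 0.94, adjusted p = 0.696 in limma). It was −0.06 without H and −1.0 without control B. With the fibroblast median as a covariate it was 0.06, with the endothelial median −2.00 (adjusted p = 0.248 in limma), and with the scan-letter groups −1.31.

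Mmp13, a collagenase that cuts fibrillar collagens, had on probe set 1417256_at nearly equal group means, 9.16 ± 0.914 in E2f3-deleted arrays and 9.18 ± 0.776 in control arrays (SD, n = 4 each). Its log2 signals were 8.78, 8.41, 8.97 and 10.49 in E2f3-deleted arrays A, E, F and H, against 8.35, 8.70, 9.94 and 9.73 in control arrays B, C, D and G. Both groups spread over more than 1 log2 unit, with H at the top of one and D and G at the top of the other. The difference was −0.02 (SE 0.518, adjusted p = 0.991 in limma) and −0.46 without H. The interval of −1.21 to 1.17 leaves room for more than a doubling in either direction.

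Mmp14, the membrane-anchored MT1-MMP that activates the Mmp2 precursor at the cell surface, was measured by 3 probe sets that were all lower in the E2f3-deleted group. The brightest, 1448383_at, had log2 signals of 10.76, 10.72, 10.90 and 11.46 in E2f3-deleted arrays A, E, F and H, against 11.16, 10.87, 10.95 and 11.08 in control arrays B, C, D and G. H was again the highest of the 8 arrays, and A and E lay under every control. The difference was −0.05 (SE 0.162, adjusted p = 0.894 in limma), with −0.15 and −0.20 for the other probe sets. Without H the 3 differences were between −0.32 and −0.22, the brightest with adjusted p = 0.326 in limma. In 2 of the 3 probe sets the remaining E2f3-deleted values then lay wholly below the controls. With H the groups overlapped on all 3, and the share of all probe sets that lay apart without H was not computed. With the endothelial median as a covariate the brightest probe set gave 0.31 and with the scan-letter groups 0.07, so its sign is not fixed.

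Mmp19, on probe set 1421977_at, lay under the filter on low signal and was not among the genes tested. It cuts basement membrane proteins. Its log2 signals were 5.30, 6.74, 5.91 and 5.24 in E2f3-deleted arrays A, E, F and H, against 5.27, 6.08, 6.37 and 5.70 in control arrays B, C, D and G. The group ranges overlapped almost entirely. The difference was −0.06 (SE 0.353, adjusted p = 0.963 over all probe sets in limma), and the second probe set gave 0.02.

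The inhibitors differed from each other in how their probe sets ran. Timp1, which binds most secreted MMPs and is found with the Mmp9 precursor, had on probe set 1460227_at log2 signals of 9.0, 8.97, 9.41 and 9.74 in E2f3-deleted arrays A, E, F and H, against 8.54, 8.57, 9.49 and 9.39 in control arrays B, C, D and G. The controls formed a low pair, B and C, and a high pair, D and G, with E2f3-deleted A and E between the pairs, F level with the high pair and H above it. The difference was 0.28 (SE 0.274, adjusted p = 0.654 in limma), 0.13 without H and −0.16 with the scan-letter groups.

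Timp2, which blocks MMPs and also takes part with Mmp14 in the activation of the Mmp2 precursor, was lower in the E2f3-deleted group on 6 of 6 probe sets, by small amounts. The brightest, 1460287_at, had log2 signals of 12.95, 13.00, 13.10 and 12.81 in E2f3-deleted arrays A, E, F and H, against 13.00, 13.31, 13.10 and 13.19 in control arrays B, C, D and G. Arrays A and H lay under the lowest control and E level with it, while controls C and G lay above every E2f3-deleted array. The difference was −0.18 (SE 0.087, 95% interval −0.38 to 0.02, adjusted p = 0.385 in limma). The 6 probe sets gave −0.23 to −0.11, and each stayed below 0 when any 1 array was left out (48 of 48 values). Without control C they shrank to between −0.13 and −0.02. The dimmest, 1437081_at, had a mean log2 signal of 3.53, under the 5.998 of the filter on low signal. Probe sets of 1 gene share the same RNA and are not replicates.

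Timp3 had the largest difference of the 9 genes and was higher on 4 of 4 probe sets. The brightest, 1449335_at, had log2 signals of 9.16, 7.83, 8.89 and 10.28 in E2f3-deleted arrays A, E, F and H, against 7.29, 7.66, 7.88 and 7.87 in control arrays B, C, D and G. Replicates A, F and H lay above every control by about 1 log2 unit or more, while E lay just under controls D and G. The mean was 9.04 ± 1.01 in E2f3-deleted arrays and 7.67 ± 0.274 in control arrays (SD, n = 4 each). That is a difference of 1.36 (SE 0.452, 95% interval 0.33 to 2.40), or 2.58-fold, which did not pass the test (adjusted p = 0.272 in limma).

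The other 3 Timp3 probe sets were dimmer and separated the groups fully. Their mean log2 signals were 5.84, 5.29 and 4.325, all under the 5.998 of the filter on low signal. The probe set 1419089_at had 6.38, 5.61, 6.39 and 7.39 in E2f3-deleted arrays A, E, F and H, against 5.04, 5.14, 5.28 and 5.51 in control arrays B, C, D and G. Here E2f3-deleted E was the lowest of its group and still above control G, the highest of the controls. This probe set differed by 1.2 (SE 0.316, adjusted p = 0.349 over all probe sets in limma), and the remaining 2 by 0.76 and 0.40. These were the 3 member probe sets of 22 whose groups did not overlap, against 5.96% of all probe sets, and none of the 22 passed the test. The order of the 4 Timp3 differences followed the order of the probe sets' mean signals.

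**Figure D2:**
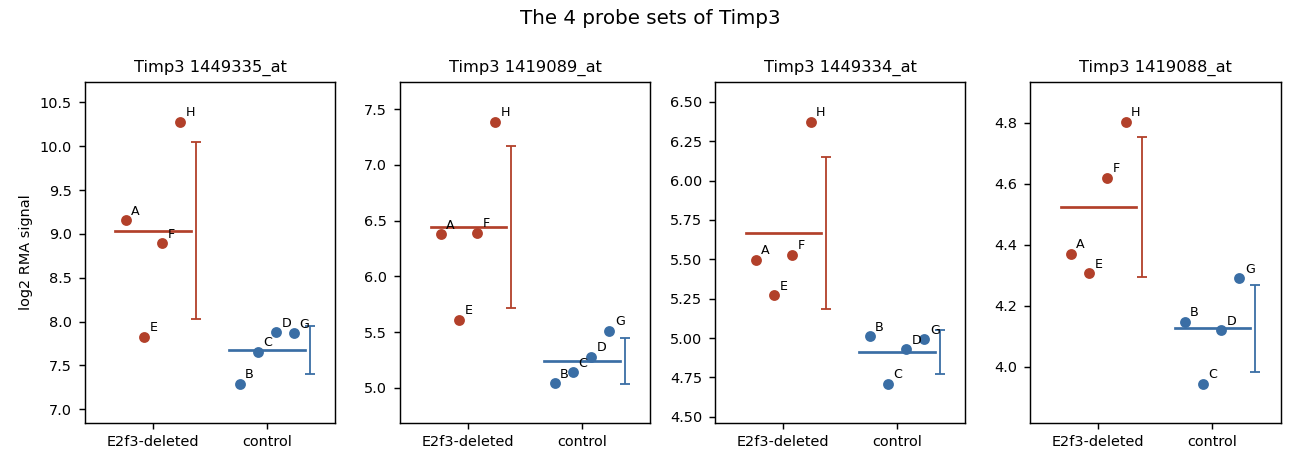
Log2 RMA signal (vertical axis, separate scales) of the 4 Timp3 probe sets on each array, E2f3-deleted replicates left and control replicates right, with group means as lines and ± 1 SD as brackets (n = 4 each). Replicate H is the highest array on each probe set, and the groups overlap on 1449335_at through E2f3-deleted replicate E but not on the other 3.

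Leaving out single arrays did not turn the sign of Timp3. Over the 4 probe sets and 8 arrays left out in turn, 32 of 32 differences were above 0. On the 3 dimmer probe sets the groups lay wholly apart, so leaving out 1 array could not turn the sign there. The brightest probe set gave 0.95 without replicate H (adjusted p = 0.257 in limma) and 1.77 without replicate E (adjusted p = 0.0917 in limma), the lowest and highest of the 8 values. With the fibroblast median as a covariate the difference was 0.85, with the endothelial median 1.79, and with the scan-letter groups 0.57 (adjusted p = 0.893 in limma). Timp3 lies within the span of the synapsin gene Syn3 in the RefSeq gene table. The brightest Syn3 probe set was lower by 0.26 in the E2f3-deleted group (adjusted p = 0.395 over all probe sets in limma) and the other 2 gave −0.15 and 0.11.

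**Figure D3:**
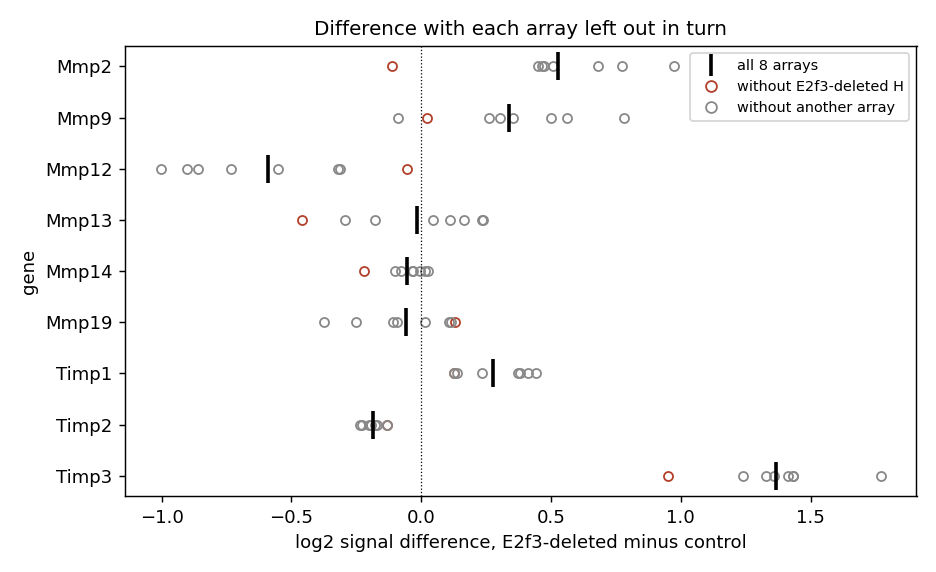
Difference in log2 signal, E2f3-deleted minus control (horizontal axis), for each of the 9 genes (rows) with all 8 arrays (black bar), without E2f3-deleted replicate H (red circle) and without each other array (grey circles). Timp3 stays between 0.95 and 1.77 and Timp2 below 0, while Mmp2, Mmp9, Mmp13, Mmp14 and Mmp19 lie on both sides of 0.

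Across the 22 probe sets, 10 were higher and 12 lower in the E2f3-deleted group. The 4 at an unadjusted p under 0.05 were the 4 of Timp3, which share the same RNA. Of all genes tested, 14.2% reached that mark, and the share of all probe sets was not computed. Probe sets of the same gene pointed the same way in Mmp2, Mmp9, Mmp14, Timp2 and Timp3, and the 2 of Mmp19 lay on either side of 0. Mmp12, Mmp13 and Timp1 had 1 probe set each.

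**Figure D4:**
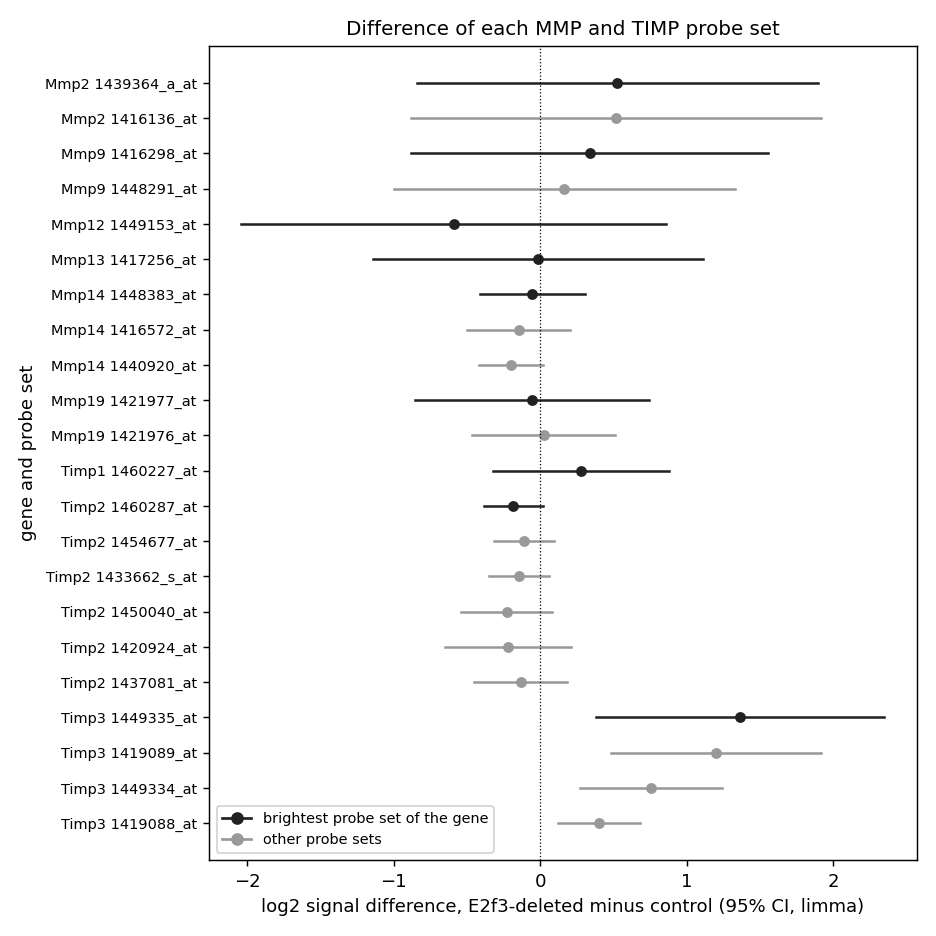
Difference in log2 signal, E2f3-deleted minus control, with its 95% confidence interval (horizontal axis, limma over all probe sets, n = 4 arrays each), for the 22 probe sets (rows). Black marks the brightest probe set of a gene. The 4 Timp3 intervals lie above 0, the 6 Timp2 estimates lie just below it, and the widest intervals are those of Mmp2, Mmp9, Mmp12 and Mmp13.

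Of 17 other matrix metalloproteinases listed, 12 had a probe set and 5 passed the filter, with 2 higher, 3 lower, 0 at an unadjusted p under 0.05 and a median of −0.06. Stromelysin Mmp3, which can activate other MMP precursors, had 7.94, 6.26, 6.98 and 10.90 in E2f3-deleted arrays A, E, F and H, against 6.75, 5.53, 7.46 and 6.80 in control arrays B, C, D and G. As with Mmp2, H stood far above the rest and E was among the lowest. Its difference was 1.38 (SE 0.945, adjusted p = 0.518 in limma). The neutrophil collagenase Mmp8 had −0.59 and the membrane-type Mmp24 −0.06.

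The inhibitors outside the TIMPs gave a like picture for H. Reck, a membrane-anchored inhibitor of MMPs, had 7.17, 6.53, 7.17 and 11.13 in E2f3-deleted arrays A, E, F and H, against 7.26, 5.95, 6.76 and 7.0 in control arrays B, C, D and G. Only H exceeded the controls. The difference was 1.26 (SE 0.940, adjusted p = 0.552 in limma), while the plasma protease trap A2m had −0.06, and Timp4 did not pass the filter.

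Of 10 tested genes that activate, dock or clear MMPs, 4 were higher, 6 were lower and 3 reached an unadjusted p under 0.05. Of all genes tested, 14.2% reached that mark. The caveolar protein Cav1, present on endothelial cells and a partner of Mmp14 in membrane uptake, had 11.32, 10.66, 11.23 and 9.97 in E2f3-deleted arrays A, E, F and H, against 8.66, 9.91, 9.54 and 9.53 in control arrays B, C, D and G. Its groups did not overlap, as in 8.48% of all genes, and its difference was 1.39 (SE 0.356, adjusted p = 0.210 in limma). Lrp1, the endocytic receptor that clears several MMPs, had −0.30, and the urokinase receptor Plaur −0.26. Lcn2, a lipocalin that binds Mmp9, had 0.34.

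Timp3 also blocks ADAM and ADAMTS proteases, of which 12 were tested, with 7 higher, 5 lower, 4 at an unadjusted p under 0.05 and a median of 0.02. Over all genes, 14.2% reached that unadjusted p. The aggrecan-cleaving Adamts1 had 8.48, 7.99, 8.24 and 10.58 in E2f3-deleted arrays A, E, F and H, against 6.97, 6.96, 7.54 and 7.12 in control arrays B, C, D and G. Its 4 E2f3-deleted values lay above every control, H by the most, and the groups lay apart in 8.48% of all genes. Its difference was 1.68 (SE 0.527, adjusted p = 0.255 in limma). Adamts9 had 1.34 and Adamts4 1.04, while the sheddase Adam9 had −0.15, and none of the 4 passed the adjusted test.

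Genes of the extracellular matrix, the substrates of these enzymes, were higher in 14 of 15 cases, with a median of 0.82 against −0.03 for all genes. An unadjusted p under 0.05 was reached by 6 of them, against 14.2% of all genes, and 0 passed the adjusted test. The list's medians were 0.79, 0.01, 0.29 and 1.45 on E2f3-deleted A, E, F and H and −0.59 to 0.49 on the controls, so E and F lay within the control range. Of its genes, Col1a1, Col1a2, Col3a1 and Dcn are also fibroblast markers here. Basement membrane Col4a2 had 10.78, 10.03, 10.93 and 11.48 in E2f3-deleted arrays A, E, F and H, against 9.45, 8.90, 9.87 and 9.30 in control arrays B, C, D and G. The Col4a2 groups did not overlap, a pattern that 8.48% of all genes showed. The difference was 1.42 (SE 0.312, adjusted p = 0.186 in limma), with 1.34 for its partner chain Col4a1 and 0.95 for the laminin chain Lama4. Fibronectin, Fn1, which macrophages also make, was the exception at −0.17.

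Marker levels of the cell types in the tumour also varied between these arrays. The 14 macrophage markers had medians of −0.19 to −0.06 on the E2f3-deleted arrays and −0.04 to 0.06 on the controls, relative to the control mean. Of these 14, 13 were lower and 1 higher, with differences of −0.53 to 0.01. Among all 10916 genes tested, 6410 were lower and 4506 higher. In 3 of the 14 markers the unadjusted p was under 0.05 and in 3 the groups did not overlap, against 14.2% and 8.48% of all genes. Adgre1, which encodes F4/80, had a difference of −0.18, the receptor Mertk −0.39, Cd68 −0.29 and lysozyme Lyz2 −0.14. The 10 tested endothelial markers were all higher, 9 at an unadjusted p under 0.05, against 14.2% of all genes. Their medians were 2.03, 1.11, 2.01 and 0.04 on E2f3-deleted A, E, F and H and −0.57 to 0.44 on the controls. The 12 fibroblast markers were also all higher, 1 at an unadjusted p under 0.05, with medians of 0.92, −0.37, −0.05 and 2.13 on E2f3-deleted A, E, F and H and −0.70 to 0.43 on the controls. On H the endothelial median lay within the control range and the fibroblast median above it, while A, E and F lay above every control in the endothelial median. The endothelial genes Plvap, Erg and Kdr had differences of 1.82, 1.37 and 1.10, and the fibroblast genes Pdgfrb, Postn, Pcolce and Col1a2 had 0.92, 0.90, 0.74 and 0.12. None of these lists had a gene past the adjusted test. RMA values have no zero, so no marker can be given as absent, and in a bulk sample fewer cells of a type and less RNA per cell cannot be told apart.

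Pericyte and smooth muscle markers had medians of 1.39, 0.27, 1.55 and −0.56 on E2f3-deleted A, E, F and H and −0.21 to 0.18 on the controls, with 7 of 8 genes higher. Kcnj8 had a difference of 0.77, Notch3 0.99, Acta2 0.51 and Cspg4 −0.54. Mast cell markers, 8 of 8 higher in the group means, had medians of 0.56, 1.24, −0.35 and 4.18 on E2f3-deleted A, E, F and H and −0.51 to 0.29 on the controls, so that F was within the control range. Cpa3 had a difference of 1.98, and Kit and Gata2 0.85 each. The 10 epithelial markers were higher in the group means, by a median of 0.46, with medians of 0.31, 0.84, 0.81 and −0.27 on E2f3-deleted A, E, F and H and −0.41 to 0.76 on the controls. A and H lay within that range. Esrp1 had 0.57, Ehf 0.54, Krt8 0.41 and Epcam 0.39. The 3 tested neutrophil markers S100a8, S100a9 and Csf3r had 0.24, 0.17 and −0.19. The part of these cells in the members' values was not tested. The covariate fits given above cannot test it, because the medians themselves differed between the groups, the endothelial one by 1.29 on average.

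**Figure D5:**
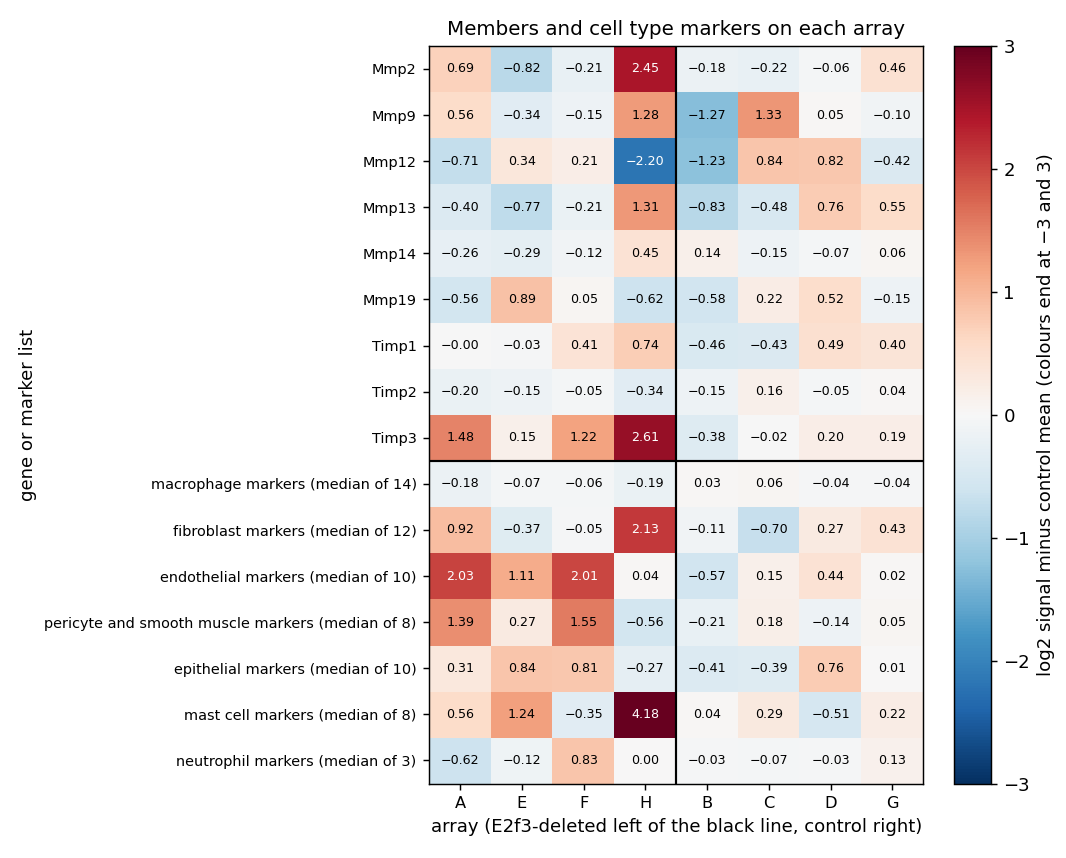
Log2 signal minus the mean of the 4 control arrays (colour and printed value) for the 9 genes and for the median of each cell type marker list (rows) on each array (columns), E2f3-deleted replicates left of the black line and control replicates right of it. Timp3 is at 1.48, 0.15, 1.22 and 2.61 on E2f3-deleted A, E, F and H. The endothelial row is high on A, E and F, and the fibroblast and mast cell rows are highest on H.

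Correlations over the 8 arrays are given as a description, since the arrays share the group difference and replicate H. Each r is also given without H and without the 2 arrays farthest from the list's median. Mmp2 followed the fibroblast median with r = 0.95, 0.833 without H and 0.690 without the farthest 2. Timp3 had r = 0.851 with the fibroblast median, 0.587 without H and 0.181 without the farthest 2. With the endothelial median Timp3 had r = 0.367, 0.931 without H and 0.0156 without the farthest 2. With the pericyte median it had r = 0.162, 0.946 without H and −0.717 without the farthest 2. These 3 values for Timp3 thus changed with the arrays included. With the macrophage median Timp3 had r = −0.872, −0.817 without H and −0.606 without the farthest 2, and Timp2 had r = 0.789, 0.663 and 0.506. Mmp12 had r = −0.785 with the fibroblast median, −0.476 without H and −0.310 without the farthest 2. In the same order, the fibroblast r was 0.741, 0.436 and 0.773 for Mmp13. For Timp1 it was 0.683, 0.485 and 0.756, and for Mmp14 0.66, 0.00964 and 0.532. Timp2 had −0.743, −0.478 and −0.202, and Mmp19 had −0.611, −0.507 and −0.252. Mmp9 had 0.396, −0.0704 and −0.426.

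Among the members, Mmp13 and Timp1 had the closest relation, r = 0.868 over 8 arrays and 0.806 without H. Mmp12 and Mmp19 had r = 0.823 with and without H. Mmp2 and Timp3 had r = 0.823, but 0.458 without H. The relation of Mmp2 to Mmp14, its activator, was 0.757 and 0.193 without H. No pair reached 0.9.

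The genes most like each member over the 8 arrays were listed in the same way. For Mmp2 they included the small matrix proteoglycan Dcn (r = 0.979) and Slc22a17 (r = 0.980), the lipocalin receptor. For Mmp12 they included Clec4d (r = 0.986), a C-type lectin of myeloid cells, and the interleukin-1 receptor antagonist Il1rn (r = 0.969). Mmp9 was most like the hyaluronan receptor Layn (r = 0.974), and Mmp13 like Acpp (r = 0.953), Pip (r = 0.934) and Snhg4 (r = 0.932). Mmp14 was most like Sec61a2 (r = 0.977), and Mmp19 like Mgst2 (r = 0.961). With 8 arrays and 10916 genes, many genes reach such values.

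For the inhibitors, Timp2 was most like Pld3 (r = 0.972) and came close to Galns (r = 0.963), both of which encode lysosomal enzymes. Pld3 was 0.43 and Galns 0.46 lower in E2f3-deleted arrays, against 0.18 for Timp2. Timp1 was most like the noncoding RNA gene Dancr (r = 0.975). Timp3 was most like the histone deacetylase Hdac7 (r = 0.990), the membrane-bound transcription factor Creb3l2 (r = 0.987) and the chemokine-scavenging receptor Ackr3 (r = 0.985). Ackr3 was 1.30 higher in E2f3-deleted arrays, close to the 1.36 of Timp3. In all, 234 genes had r over 0.9 with Timp3, against 154 for Mmp2 and 3 for Mmp9.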

How the data were processed

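Total RNA was extracted with Trizol and biotinylated cRNA was hybridised to 1-colour Affymetrix arrays, per the labels' protocols. The deposited log2 signals were made by RMA, per the submitters' processing notes, with the version and settings not given in the sources used here. They were used without further normalization. Of 45101 probe sets, 34945 have 1 symbol, 932 several, 9160 none and 64 are controls. Symbols come from GEO's platform annotation and sequences from RefSeq. Genes under the 40th percentile of mean signal (5.998) were left out, and 10916 were tested with limma 3.58.1 (R 4.3.3), using lmFit and then eBayes without covariates, two-sided, at an adjusted p under 0.05. The fit was tested on simulated data. The number of arrays limits the precision. Members and lists were chosen with earlier results of these data known. Named genes are all members and genes drawn, per list, from the 3 tested ones with the smallest p and the brightest, all other inhibitors, and genes among the 3 most correlated with each member. E2f3 as the target, Syn3 for its overlap with Timp3, and genes shared by 2 lists are named outside that rule. At most 0.317% of values were identical between 2 arrays. Alternatives covered probe set choice, filter, normalization, variance prior, array weights, grouping, covariates, threshold and single arrays left out.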

Additional observations from a re-analysis of the deposited data

Results flagged for a closer look

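In 58 groups of 4 values from single probe sets, 3 arrays lay far from the others of their group, and chance flags about 1 group in 20. On the Mmp14 probe set 1416572_at, E2f3-deleted replicate H stood at 9.19, above 8.53, 8.49 and 8.53 in A, E and F. On the same probe set control replicate B stood at 9.0, above 8.77, 8.79 and 8.77 in C, D and G. On the Timp2 probe set 1450040_at, control replicate C stood at 9.83, above 9.31, 9.24 and 9.25 in B, D and G.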

How the results depend on the processing

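No member passed the adjusted threshold under any alternative tried. Timp3 stayed higher and Timp2 lower in each. The number of members at an unadjusted p under 0.05 was 1, but 2 with a trended robust prior, 2 with the scan-letter groups (Mmp12 and Timp2, without Timp3) and 3 with the endothelial covariate, and 1 to 2 with an array left out. Genes past the adjusted threshold numbered 0, but 0 to 60 with an array left out, with 60 without E2f3-deleted replicate E and 14 without E2f3-deleted replicate H, none of them a member. Genes at an unadjusted p under 0.05 numbered 1547, against 944 with the 60th percentile filter, 449 with the scan-letter groups and 1009 (without control B) to 1854 (without E2f3-deleted E) with an array left out.

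The sign turned in 24 member values, and the cause was not tested. With the fibroblast covariate Mmp2 was −0.25, Mmp12 0.064 and Mmp19 0.25. With the endothelial covariate Mmp13 was 0.46 and Mmp14 0.31. With array weights Mmp12 was 0.027 and Mmp19 0.13. With the scan-letter groups Mmp9 was −0.22, Mmp14 0.074 and Timp1 −0.16. The second Mmp19 probe set gave 0.023. With an array left out, Mmp2 ran between −0.11 and 0.97, Mmp9 between −0.088 and 0.78, Mmp13 between −0.46 and 0.24, Mmp14 between −0.22 and 0.025, and Mmp19 between −0.37 and 0.13. No paired analysis was possible because the groups share no replicate letters.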
